A study of Rattus norvegicus with 23 samples.

Results

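Chemokines are small secreted proteins that steer leukocytes, and their receptors are the G protein-coupled receptors through which the cells sense them. The genes described here are those whose symbol is Ccl, Cxcl, Ccr or Cxcr followed by a number, together with Cx3cl1, Cx3cr1, Xcl1, Xcr1 and the atypical receptors Ackr1 to Ackr4. The rule found 52 genes among the 16544 genes with a symbol on the array: 33 ligands, 17 signalling receptors and 2 atypical receptors. Ackr1, Ackr4, Ccr8 and Cxcl3 were matched to no probe and were not analysed here.

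The RNA came from hearts and great vessels of male Wistar rats aged 8 to 11 weeks, and 12 rats were killed in all. All groups share strain, sex and age range, and the labels give no treatment or altered gene. Tissue was cut from 6 places: the left atrium (LA, 4 arrays), the region of the sinoatrial node (SA, 4 arrays), the pulmonary vein (PV, 4 arrays), the mass of the left ventricle (LV, 4 arrays), the outer (free) wall of the right ventricle (RV, 3 arrays) and the pulmonary artery (PA, 4 arrays). The LA piece was taken next to the PV. RNA from 2 rats went into each SA sample, and each LV mass was cut into 3 pieces that served as samples. Some arrays may therefore hold tissue of the same rat, and the p-values measure only the spread between these samples. All pieces were blocks of mixed tissue, so fewer cells of a type and less RNA per cell cannot be told apart in any value that follows.

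Chemokines fall into families by the spacing of their conserved cysteines, which gives the CC, CXC, CX3C and XC names. Some are inflammatory: CXCL9, CXCL10 and CXCL11 are induced by interferon and act on CXCR3 of activated T cells, CCL3, CCL4 and CCL5 draw T cells and macrophages, and CCL2 and CCL7 draw monocytes through CCR2. Others are homeostatic: CXCL12 acts on CXCR4, while CCL19 and CCL21 act on CCR7. Atypical receptors bind chemokines without the usual G protein signal and mostly remove them. In a healthy heart the cells that can carry these genes include resident macrophages, a few T cells, endothelium, fibroblasts and smooth muscle cells.

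Levels are given as log2(normalized signal + 1), with the values of a region listed in the order of its replicate numbers, and a difference, given after "at" or "by" with its standard error, is the first group's mean minus the second's on that scale. Between 58.6% and 79.8% of the probes had the scanner mark for well above background, depending on the array. Of the 52 genes, 27 were well above background on all 23 arrays, and Xcr1, the receptor of XCL1, was on none. Counting only genes that passed this mark on all arrays of their region, RV had 43, LV 41, LA 38, PV 32, PA 32 and SA 31. RV needed 3 arrays to pass and the other regions 4, and the same counts were not made for all genes. Arrays in row 2 of a slide had a higher noise floor (4.91 to 5.66) than arrays in row 1 (3.86 to 4.48), and row 2 held 1 of 4 LA arrays but 3 of 4 SA and 3 of 4 PV arrays. PA replicate 1 stood apart from the other PA arrays, with a summed signal of the atrial myocyte markers of 37761 against 3246 to 5094, and it is named where a value rests on it. Region markers followed the labels: the summed ventricular myocyte list was 1228742 to 1462778 in LV and 326942 to 399676 in LA, the sinoatrial pacemaker list was 4197 to 4759.7 in SA, 2535 to 3306 in PV and 462 to 716 in LA, and the smooth muscle list was 469490.1 to 556104 in PA and 25797 to 32101 in LV. By rank correlation over the probes kept, LA replicate 3 and SA replicate 2 were nearest to each other. PV replicates 1 to 3 were also nearest to SA replicate 2. The other LA, SA and PV arrays were nearest to an array of their own region.

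Among the 6 regions, 33 of the 51 genes tested differed (64.7%) by limma's moderated F-test with Benjamini-Hochberg adjustment, against 64.4% of all 16089 genes, a share near that of the background. Without PA in the comparison, 29 of 51 differed (56.9%), against 42.7% of all genes. By role, 25 of 33 ligands, 6 of 16 receptors and both atypical receptors differed among the 6 regions. The highest regional mean of the 33 genes was in LV for 11 and in RV for 11, in PA for 5, and in LA, SA and PV for 2 each. Their lowest mean was in PA for 13, in SA for 8, in LA for 7, in LV for 3, in RV for 1 and in PV for 1. These counts were not taken over all genes, so they describe these genes alone.

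The interferon-inducible ligands of CXCR3 lie side by side on rat chromosome 14, with Cxcl11 at 15973728 to 15976503, Cxcl10 at 15989066 to 15991263 and Cxcl9 at 16007166 to 16012077 (RefSeq, assembly GRCr8); Cxcl10 and Cxcl11 lie within the annotated span of Art3. Their promoters are shown because the data bear on all 3 genes at once. Each run covers 250 bases before and 50 bases after the annotated start, read 5′ to 3′ along the gene, and capitals mark matches to the core of the interferon-stimulated response element (GAAA repeated after a gap of 2 bases), the gamma-activated site TTCNNNGAA and the NF-kB motif, searched on both strands, and to TATAAA on the gene's strand.
Cxcl9, chr14:16006916-16007215, plus strand: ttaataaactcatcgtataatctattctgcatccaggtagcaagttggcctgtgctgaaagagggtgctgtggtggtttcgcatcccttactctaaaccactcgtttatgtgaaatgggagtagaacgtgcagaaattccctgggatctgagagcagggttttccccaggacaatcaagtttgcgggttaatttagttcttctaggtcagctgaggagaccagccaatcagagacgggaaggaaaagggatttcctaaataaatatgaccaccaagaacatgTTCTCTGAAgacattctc
Cxcl10, chr14:15988816-15989115, plus strand: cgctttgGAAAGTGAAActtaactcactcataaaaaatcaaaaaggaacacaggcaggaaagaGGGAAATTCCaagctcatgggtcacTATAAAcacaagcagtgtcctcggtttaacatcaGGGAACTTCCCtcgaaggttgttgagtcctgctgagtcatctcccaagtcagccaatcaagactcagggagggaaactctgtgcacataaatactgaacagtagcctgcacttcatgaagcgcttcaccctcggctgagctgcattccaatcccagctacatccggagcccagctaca
Cxcl11, chr14:15973478-15973777, plus strand: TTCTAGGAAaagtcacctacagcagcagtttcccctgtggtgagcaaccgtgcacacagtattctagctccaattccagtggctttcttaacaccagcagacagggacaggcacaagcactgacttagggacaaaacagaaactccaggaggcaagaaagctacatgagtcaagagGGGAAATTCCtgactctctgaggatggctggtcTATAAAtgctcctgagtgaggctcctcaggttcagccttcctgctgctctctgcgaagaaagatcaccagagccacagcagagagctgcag

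In the Cxcl10 promoter the response element core stood at bases 8 to 17, NF-kB matches at bases 64 to 73 and 123 to 133 (the latter being a pair of overlapping matches), and TATAAA at bases 89 to 94. The Cxcl11 run held the gamma-activated site at bases 1 to 9, an NF-kB match at bases 177 to 186 and TATAAA at bases 210 to 215, while Cxcl9 held only a gamma-activated site at bases 283 to 291. No match overlapped a match to a different motif. Over 33365 promoters of the same length, 3.92% held the response element core, 8.88% the gamma-activated site, 7.53% the NF-kB motif and 8.8% TATAAA. Among the 41 chemokine and receptor promoters in the RefSeq table, the corresponding shares were 4.88%, 14.6%, 22.0% and 26.8%. A match describes the letters in the window only.

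Cxcl11 was 6.32, 6.03, 6.47 and 6.44 in LA, 3.60, 4.63, 3.52 and 3.56 in SA, 4.24, 4.94, 5.21 and 3.88 in PV, 10.004, 9.91, 9.93 and 9.96 in LV, 9.88, 10.28 and 10.50 in RV, and 2.41, 3.20, 2.85 and 3.61 in PA. Every ventricular array lay above every array elsewhere. The difference of the mean of LA, SA and PV from the mean of LV and RV was -5.18 ± 0.20 (SE, adjusted p = 1.41e-13). LA held an intermediate level: SA was lower than LA, at -2.49 ± 0.29 (adjusted p = 1.37e-05), and PV was lower, at -1.75 ± 0.29 (adjusted p = 0.000429), although Cxcl11 was well above background on only 1 of 4 SA and 1 of 4 PV arrays. The arrays that failed the mark had noise floors of 5.34 to 5.66 in SA and 4.91 to 5.47 in PV. The sizes of both differences are therefore not settled. In PA it was well above background on no array, and the mean of the other 5 regions was at least 4.52-fold higher.

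Cxcl10 was 6.83, 6.87, 6.68 and 7.59 in LA, 5.995, 5.39, 6.25 and 6.96 in SA, 6.28, 5.79, 6.31 and 5.85 in PV, 8.08, 7.81, 8.06 and 8.77 in LV, 8.47, 10.13 and 9.14 in RV, and 5.50, 5.18, 3.95 and 3.51 in PA. Ventricular arrays lay above all atrial, SA, PV and PA arrays, with a difference of -2.31 ± 0.29 (SE, adjusted p = 2.07e-06) for LA, SA and PV against LV and RV. PA against the mean of the other 5 regions differed by -2.79 ± 0.33 (SE, adjusted p = 3.28e-07), with 1 of 4 PA arrays well above background. Cxcl9 was 7.61, 7.07, 7.42 and 7.78 in LA, 8.05, 8.81, 8.31 and 8.25 in SA, 8.61, 8.27, 8.14 and 8.08 in PV, 8.76, 8.87, 9.26 and 9.46 in LV, 9.52, 10.19 and 9.92 in RV, and 5.08, 5.67, 5.46 and 5.50 in PA. Here LA, and not SA or PV, was the lowest of the 5 regions of the heart and vein: SA exceeded LA by 0.88 ± 0.20 (SE, adjusted p = 0.0061) and PV exceeded LA by 0.80 ± 0.20 (SE, adjusted p = 0.0124). All PA arrays lay below all others (-3.19 ± 0.16 SE, adjusted p = 7.01e-13), and the ventricles were higher than LA, SA and PV (-1.45 ± 0.14 SE, adjusted p = 7.06e-08). The PV difference from LA lost its call without LA replicate 2, at 0.67.

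Cxcr3, the receptor of these ligands on T cells and natural killer cells, was 6.14, 5.96, 5.50 and 5.94 in LA, 4.81, 4.70, 5.39 and 4.50 in SA, 4.36, 5.31, 5.49 and 4.19 in PV, 7.87, 6.78, 7.20 and 6.99 in LV, 6.62, 7.18 and 6.37 in RV, and 5.24, 5.04, 5.75 and 3.39 in PA. It was well above background on all 11 arrays of LV, RV and LA but on 1 of 4 SA, 2 of 4 PV and 2 of 4 PA arrays. LA, SA and PV differed from the ventricles by -1.77 ± 0.28 (SE, adjusted p = 3.11e-05), with no overlap of arrays.

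**Figure D1:**
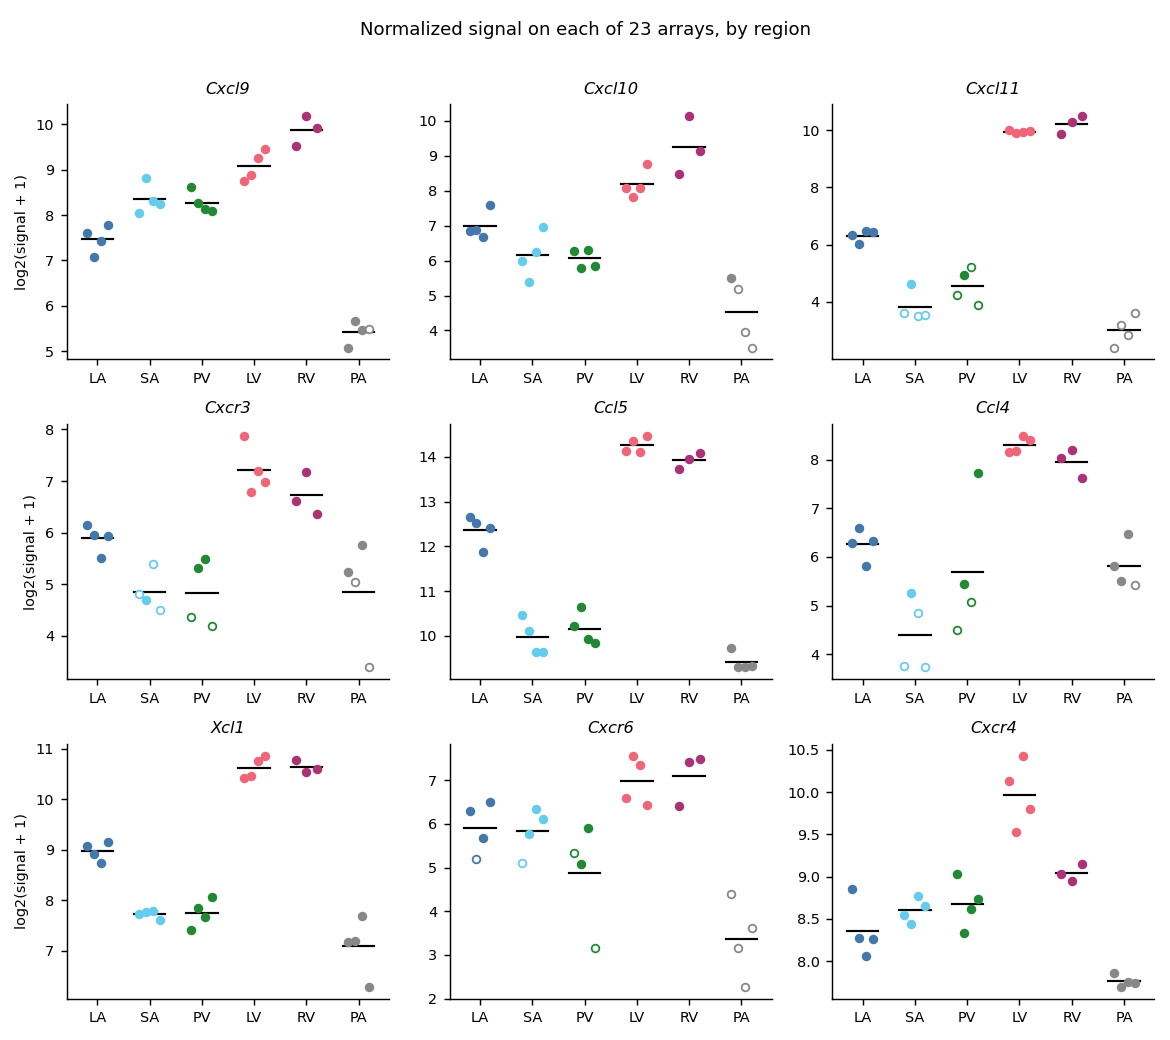
Each point is the log2(normalized signal + 1) of 1 array and the line is the regional mean for 9 genes; filled points were well above background and open points were not. Cxcl11, Cxcl10, Ccl5, Xcl1 and Cxcr3 are higher on all 7 ventricular arrays than on any array of LA, SA, PV or PA, Cxcl9 is lowest in PA, and Cxcr4 is highest in LV.

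Ccl5, a T cell and natural killer cell product, lies on chromosome 10 (68820330 to 68824906) near Ccl3 and Ccl4. Ccl5 was 12.66, 12.51, 11.87 and 12.40 in LA, 10.47, 10.11, 9.64 and 9.65 in SA, 10.22, 10.63, 9.92 and 9.84 in PV, 14.13, 14.35, 14.10 and 14.47 in LV, 13.73, 13.96 and 14.08 in RV, and 9.73, 9.29, 9.31 and 9.31 in PA. The arrays fell into 3 separate ranges, with LV and RV at 13.73 to 14.47, LA at 11.87 to 12.66, and SA, PV and PA together at 9.29 to 10.63. LA, SA and PV were 9.62-fold lower than the ventricles, a log2 difference of -3.27 ± 0.14 (SE, adjusted p = 6.63e-13). SA was lower than LA, at -2.39 ± 0.21 (SE, adjusted p = 5.3e-07) and PV was lower than LA, at -2.21 ± 0.21 (SE, adjusted p = 1.28e-06).

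Ccl4, a macrophage and lymphocyte product, was 6.30, 6.60, 5.82 and 6.33 in LA, 3.77, 5.26, 4.85 and 3.73 in SA, 4.50, 5.44, 5.08 and 7.73 in PV, 8.15, 8.17, 8.49 and 8.40 in LV, 8.03, 8.20 and 7.61 in RV, and 5.82, 5.51, 6.48 and 5.43 in PA. PV replicate 4 reached the ventricular range, and the other LA, SA, PV and PA arrays lay below it. The difference of LA, SA and PV from the ventricles was -2.67 ± 0.33 (SE, adjusted p = 2.39e-06). Ccl3, a close relative, was 8.15, 8.38, 6.81 and 8.08 in LA, 6.92, 6.77, 7.04 and 7.54 in SA, 6.67, 8.35, 7.38 and 8.62 in PV, 8.77, 9.45, 9.49 and 8.98 in LV, 8.52, 9.37 and 9.11 in RV, and 7.09, 6.37, 9.16 and 8.79 in PA. Its LA, SA and PV arrays overlapped the ventricular arrays, with a difference of -1.53 ± 0.36 (SE, adjusted p = 0.00186).

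Xcl1, which natural killer and CD8 T cells release to attract dendritic cells bearing XCR1, was 9.07, 8.92, 8.74 and 9.15 in LA, 7.73, 7.77, 7.79 and 7.61 in SA, 7.41, 7.84, 7.67 and 8.06 in PV, 10.42, 10.46, 10.77 and 10.87 in LV, 10.78, 10.54 and 10.61 in RV, and 7.18, 7.20, 7.69 and 6.28 in PA. The ventricular arrays lay at 10.42 to 10.87, the LA arrays at 8.74 to 9.15 and the SA, PV and PA arrays at 6.28 to 8.06. Levels in LA, SA and PV were below those of the ventricles, at -2.49 ± 0.14 (SE, adjusted p = 3.83e-11), SA was lower than LA, at -1.25 ± 0.21 (SE, adjusted p = 0.000441), and PV was lower than LA, at -1.23 ± 0.21 (SE, adjusted p = 0.000527). As with Ccl5, LA lay between the ventricles and the other regions. Xcr1 itself was not well above background anywhere and was not tested.

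Cxcr6, a receptor of resident memory T cells, was 6.29, 5.20, 5.67 and 6.51 in LA, 5.12, 5.78, 6.33 and 6.12 in SA, 5.34, 5.09, 5.90 and 3.15 in PV, 6.59, 7.56, 7.35 and 6.44 in LV, 6.40, 7.41 and 7.49 in RV, and 4.40, 3.17, 2.26 and 3.62 in PA. No PA array was well above background, so the mean of the other 5 regions was at least 2.5-fold higher (adjusted p = 6.1e-06). LA, SA and PV differed from the ventricles by -1.50 ± 0.36 (SE, adjusted p = 0.00203), with overlapping arrays. Its ligand Cxcl16, which is made as a membrane-bound protein by macrophages and endothelium, varied less: 11.47, 11.34, 11.01 and 11.13 in LA, 10.66, 10.73, 10.28 and 10.69 in SA, 10.99, 11.14, 10.64 and 10.82 in PV, 11.15, 11.33, 11.21 and 11.53 in LV, 11.14, 11.84 and 11.42 in RV, and 11.63, 11.16, 11.22 and 11.20 in PA. SA was lower than LA, at -0.65 ± 0.16 (SE, adjusted p = 0.00904), and LA, SA and PV were lower than the ventricles, at -0.48 ± 0.11 (SE, adjusted p = 0.0014). By annotation Cxcr6 lies within the span of Fyco1 and Cxcl16 overlaps Zmynd15, and the positions of the probes were not analysed here.

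Ccl1, a ligand of CCR8 from activated T cells, was 5.89, 5.51, 6.59 and 6.26 in LA, 4.93, 4.71, 3.43 and 5.93 in SA, 4.77, 5.48, 5.66 and 5.21 in PV, 7.11, 6.43, 6.62 and 7.21 in LV, 7.82, 9.19 and 8.23 in RV, and 2.41, 3.12, 2.32 and 3.39 in PA. PA arrays lay below all others, none of them well above background, and the mean of the other regions was at least 2.77-fold higher. Against the ventricles, LA, SA and PV were lower, at -2.26 ± 0.28 (SE, adjusted p = 2.5e-06). SA was lower than LA, at -1.31 ± 0.42 (adjusted p = 0.0406), a call that was lost without any 1 of LA replicates 1, 3 and 4 or SA replicates 1, 2 and 3. It was well above background on 1 of 4 SA arrays, so the size of the difference is not settled. On slide 2 alone the difference was 0.23, of the opposite sign.

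The monocyte attractants showed smaller differences in the same direction. Ccl2 was 9.16, 8.14, 8.35 and 8.62 in LA, 8.26, 8.69, 7.76 and 8.83 in SA, 8.63, 8.82, 8.65 and 9.55 in PV, 9.90, 9.38, 10.67 and 10.14 in LV, 9.54, 10.18 and 9.49 in RV, and 9.56, 8.86, 10.07 and 10.05 in PA. Levels in LA, SA and PV were below those of the ventricles, at -1.26 ± 0.22 (SE, adjusted p = 0.000132), while PA against the other 5 regions was 0.51 ± 0.26 (SE, adjusted p = 0.0968) and was not called. Ccl12, the rodent ligand of CCR2, was 5.43, 5.03, 5.49 and 6.13 in LA, 6.60, 6.55, 6.20 and 6.52 in SA, 5.33, 6.54, 5.97 and 5.94 in PV, 7.71, 6.36, 7.68 and 7.82 in LV, 6.92, 7.40 and 7.36 in RV, and 6.16, 6.02, 6.48 and 7.04 in PA. Against the ventricles, LA, SA and PV were lower, at -1.34 ± 0.21 (SE, adjusted p = 4.35e-05), and the difference of SA from LA, 0.95 ± 0.32 at adjusted p = 0.0487, lost its call under 22 of the alternatives and kept it under 15. Ccl7 was 8.29, 7.17, 7.42 and 7.78 in LA, 8.13, 7.63, 7.74 and 7.85 in SA, 7.94, 8.34, 8.19 and 9.02 in PV, 8.79, 7.97, 9.31 and 8.93 in LV, 8.24, 8.91 and 8.52 in RV, and 7.92, 7.51, 8.61 and 8.85 in PA, and the arrays of the ventricles and of the other regions overlapped (-0.70 ± 0.22 SE, adjusted p = 0.0153), with the call lost without RV replicate 2. The receptor Ccr2 was well above background on all LA, LV and RV arrays and on 1 of 4 SA, 2 of 4 PV and 3 of 4 PA arrays, and differed by -0.81 ± 0.29 (SE, adjusted p = 0.0303), a call lost without LV replicate 2 or 4, PV replicate 4 or RV replicate 1.

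Ccl6 and Ccl9 are rodent CC chemokines of macrophages and other myeloid cells. Ccl6 was 10.27, 10.55, 9.34 and 9.90 in LA, 9.95, 9.83, 9.15 and 9.21 in SA, 9.12, 9.58, 8.90 and 8.56 in PV, 10.19, 10.62, 10.59 and 10.56 in LV, 10.28, 11.22 and 10.37 in RV, and 9.12, 8.53, 9.14 and 8.85 in PA. It was lower in PA than in the other regions (-1.03 ± 0.21 SE, adjusted p = 0.000329) and lower in LA, SA and PV than in the ventricles (-1.03 ± 0.19 SE, adjusted p = 0.000174). PV was lower than LA, at -0.97 ± 0.28 (SE, adjusted p = 0.0233), but the arrays overlapped, and on slide 1 alone the difference was 0.011; the call was lost without LA replicate 1, LA replicate 2, PV replicate 3 or PV replicate 4. Ccl9 differed between LA, SA and PV and the ventricles by -0.72 ± 0.22 (SE, adjusted p = 0.014), and not past the threshold without RV replicate 3.

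Cxcl12, the homeostatic chemokine that retains CXCR4-bearing cells and guides coronary vessels, was 11.27, 10.77, 11.003 and 11.39 in LA, 12.78, 13.32, 12.92 and 13.09 in SA, 13.01, 12.44, 12.87 and 12.75 in PV, 13.17, 13.54, 13.46 and 13.48 in LV, 13.20, 13.24 and 13.05 in RV, and 11.64, 11.49, 11.91 and 11.87 in PA by its highest probe. LA lay well below SA, PV, LV and RV. SA exceeded LA by 1.92 ± 0.15 (SE, adjusted p = 2.5e-07), or 3.78-fold, and PV exceeded LA by 1.66 ± 0.15 (SE, adjusted p = 9.9e-07), or 3.16-fold, in both with no overlap of arrays. The difference of LA, SA and PV together from the ventricles, -0.99 ± 0.10 (SE, adjusted p = 2.21e-07), therefore averages over regions that differ among themselves.

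In PA the 3 probes of Cxcl12, each fitted with limma among all 43522 single probes, went apart. Probes 1 and 2, designed on 1 RefSeq transcript, were lower in PA than in the mean of the other 5 regions, at -2.29 ± 0.20 (SE, adjusted p = 5e-09) and -2.26 ± 0.12 (SE, adjusted p = 2.67e-12). Probe 3, designed on another transcript of the gene, was higher in PA by 1.59 ± 0.14 (SE, adjusted p = 6.29e-09). Probe 2 was 11.27, 10.77, 11.003 and 11.39 in LA, 12.78, 13.32, 12.92 and 13.09 in SA, 13.01, 12.44, 12.87 and 12.75 in PV, 13.17, 13.54, 13.46 and 13.48 in LV, 13.20, 13.24 and 13.05 in RV, and 10.46, 10.68, 10.29 and 10.30 in PA. Probe 3 was 9.94, 9.74, 9.65 and 9.26 in LA, 9.87, 10.49, 10.19 and 10.52 in SA, 10.47, 9.87, 9.93 and 10.18 in PV, 10.04, 10.17, 10.63 and 10.26 in LV, 10.27, 10.33 and 10.51 in RV, and 11.64, 11.49, 11.91 and 11.87 in PA. Probe 2 was the brightest on the 19 arrays outside PA and probe 3 on the 4 PA arrays, so the PA difference from the highest probe, -0.97 ± 0.12, sets different probes against each other. For SA against LA all 3 probes were higher in SA, probe 3 by 0.62 ± 0.18 (SE, adjusted p = 0.0376). For PV against LA probe 3 gave 0.46 ± 0.18 (SE, adjusted p = 0.145) and for LA, SA and PV against the ventricles -0.31 ± 0.12 (SE, adjusted p = 0.0595), neither called, whereas probes 1 and 2 were called in both. Among all single probes 50.1% were called for PA, 8.43% for SA against LA, 7.46% for PV against LA and 29.8% for LA, SA and PV against the ventricles.

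**Figure D2:**
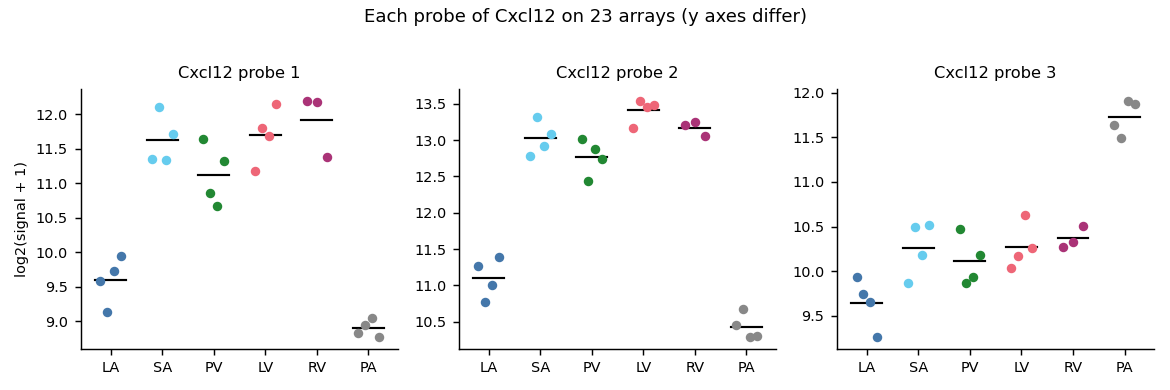
Each point is the log2(normalized signal + 1) of 1 probe of Cxcl12 on 1 array, with the regional mean as a line; the y axes differ between panels. Probes 1 and 2 are lowest in PA whereas probe 3 is highest there.

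Cxcr4, the signalling receptor of CXCL12, was 8.85, 8.27, 8.06 and 8.26 in LA, 8.55, 8.43, 8.77 and 8.65 in SA, 9.03, 8.33, 8.62 and 8.73 in PV, 10.13, 9.53, 10.43 and 9.80 in LV, 9.02, 8.95 and 9.15 in RV, and 7.85, 7.69, 7.75 and 7.74 in PA. LV arrays lay above all others and PA arrays below all others. PA was lower than the mean of the other regions, at -1.17 ± 0.14 (SE, adjusted p = 4.3e-07), and LA, SA and PV were lower than the ventricles, at -0.96 ± 0.12 (SE, adjusted p = 3.1e-06). LV exceeded RV by 0.93 ± 0.20 (SE, adjusted p = 0.0359). That call between the ventricles was lost without LV replicate 1 or 3, without any 1 RV replicate or PV replicate 4, and when the fit held LV and RV alone. Ackr3, the atypical receptor that takes up CXCL12 and CXCL11, was 11.10, 10.81, 10.44 and 10.24 in LA, 9.99, 9.997, 9.86 and 10.35 in SA, 10.50, 10.14, 10.91 and 10.40 in PV, 10.62, 10.74, 11.05 and 10.81 in LV, 10.61, 10.66 and 10.60 in RV, and 10.26, 9.75, 9.55 and 9.80 in PA. It was lower in PA (-0.68 ± 0.15 SE, adjusted p = 0.00042) and lower in SA than in LA (-0.60 ± 0.19 SE, adjusted p = 0.0374), the latter call being lost without any 1 of LA replicates 1 and 2 or SA replicates 1 to 3.

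Of the lymphoid homeostatic chemokines, Ccl19 and Ccl21 lie near each other on chromosome 5 (61759220 to 61761164 and 61776411 to 61777515). Ccl19 was 11.13, 10.73, 10.20 and 9.81 in LA, 11.30, 11.71, 10.88 and 11.89 in SA, 12.22, 12.001, 11.95 and 12.40 in PV, 10.23, 9.83, 10.22 and 10.45 in LV, 10.60, 11.37 and 10.72 in RV, and 12.95, 12.60, 12.11 and 12.38 in PA. PV and PA arrays were the highest, and PV exceeded LA by 1.68 ± 0.27 (SE, adjusted p = 0.000331) with no overlap. PA exceeded the mean of the other regions by 1.48 ± 0.21 (SE, adjusted p = 3.97e-06), and LA, SA and PV exceeded the ventricles by 0.81 ± 0.18 (SE, adjusted p = 0.00137). SA exceeded LA by 0.98 ± 0.27 (adjusted p = 0.0191), a call lost without LA replicate 3 or 4 or SA replicate 2 or 4.

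Ccl21, which lymphatic endothelium makes, was 12.16, 12.87, 11.45 and 11.69 in LA, 9.70, 7.43, 9.09 and 10.65 in SA, 11.45, 9.52, 10.67 and 10.60 in PV, 11.26, 11.21, 11.40 and 11.86 in LV, 11.65, 11.99 and 12.06 in RV, and 12.05, 10.95, 11.61 and 11.18 in PA. SA was lower than LA, at -2.83 ± 0.51 (SE, adjusted p = 0.000872), or 7.1-fold, with no overlap. Without SA replicate 2, the lowest array, the difference was -2.23 (adjusted p = 0.00195), or 4.7-fold. Within array rows the difference was -4.34 in row 1, where that array is the 1 SA array, and -3.06 in row 2. The summed lymphatic endothelium list was 18607 to 21786 in SA and 23969.5 to 27105 in LA, and its part in the result was not tested. Their receptor Ccr7 did not pass the test in any comparison. Cxcl13, the B cell attractant, was 5.68, 5.99, 6.13 and 5.30 in LA, 6.57, 5.71, 4.94 and 4.61 in SA, 5.05, 8.14, 5.57 and 5.03 in PV, 6.96, 6.52, 5.88 and 6.58 in LV, 7.42, 8.39 and 7.59 in RV, and 7.56, 7.78, 7.78 and 7.07 in PA. PA exceeded the mean of the other 5 regions by 1.25 ± 0.42 (SE, adjusted p = 0.0146), and LA, SA and PV were lower than the ventricles, at -1.42 ± 0.37 (SE, adjusted p = 0.00399). The RV arrays were 7.42, 8.39 and 7.59, above all LV arrays, but that difference, -1.31 ± 0.58 for LV minus RV, did not pass the adjusted test (adjusted p = 0.412). Its receptor Cxcr5 was called in no comparison.

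**Figure D3:**
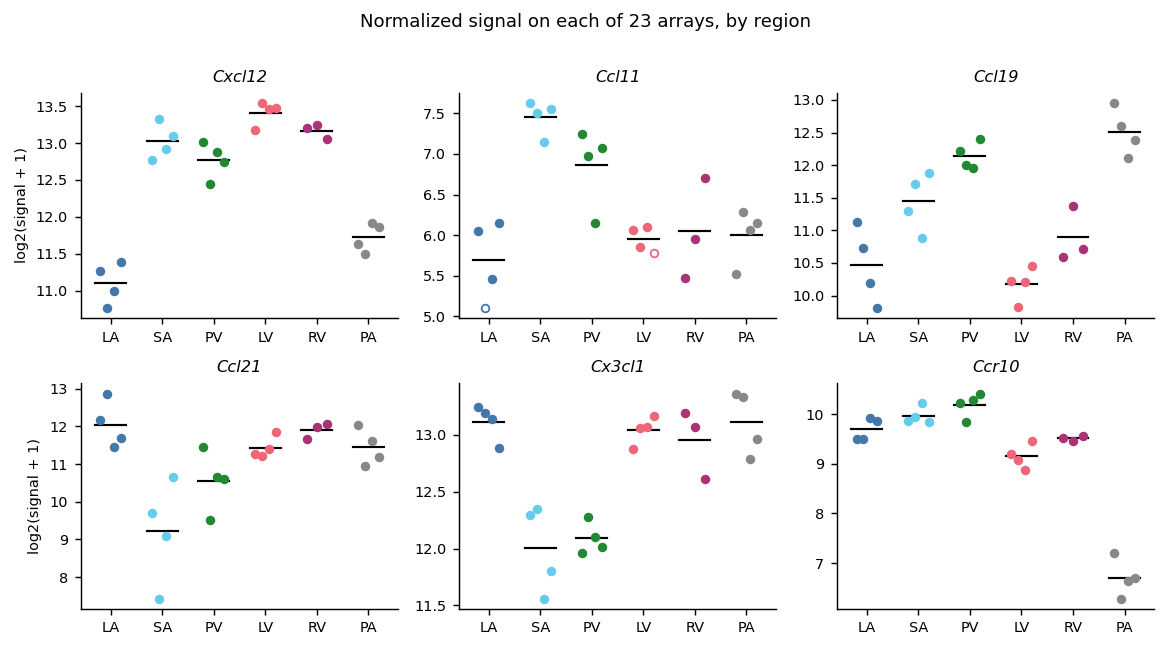
Each point is the log2(normalized signal + 1) of 1 array, filled where well above background, and the line is the regional mean. Cxcl12 is lower in LA than in SA, PV, LV and RV, Ccl21 is lowest in SA, Cx3cl1 is lower in SA and PV than in LA, and Ccr10 is lower on all PA arrays than on any other.

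Cx3cl1, the membrane-bound chemokine of endothelium and other cells, was 13.24, 13.19, 13.13 and 12.88 in LA, 12.29, 12.34, 11.56 and 11.80 in SA, 11.96, 12.28, 12.10 and 12.02 in PV, 12.88, 13.06, 13.07 and 13.16 in LV, 13.19, 13.06 and 12.61 in RV, and 13.36, 13.33, 12.78 and 12.96 in PA. SA and PV formed a lower range (11.56 to 12.34) than LA, LV, RV and PA (12.61 to 13.36). SA was lower than LA, at -1.11 ± 0.17 (SE, adjusted p = 0.000213) and PV was lower than LA, at -1.02 ± 0.17 (SE, adjusted p = 0.000471). Its receptor Cx3cr1, a marker of resident macrophages and patrolling monocytes, was 11.68, 12.06, 12.58 and 12.57 in LA, 13.10, 13.20, 13.10 and 12.86 in SA, 12.83, 12.43, 12.59 and 13.003 in PV, 12.62, 12.65, 12.21 and 12.21 in LV, 12.79, 12.93 and 11.99 in RV, and 13.25, 14.47, 14.34 and 14.27 in PA. All PA arrays lay above all others (1.49 ± 0.20 SE, adjusted p = 2.42e-06), and without PA replicate 1, the lowest PA array, the call was kept. SA exceeded LA by 0.84 ± 0.26 (SE, adjusted p = 0.0341), a call lost without any 1 of LA replicates 1 and 2 or SA replicates 1 to 3.

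Among the remaining ligands, Cxcl14, which fibroblasts and epithelia make, was 11.57, 11.95, 10.68 and 9.72 in LA, 11.10, 11.18, 10.88 and 11.30 in SA, 11.22, 10.68, 9.76 and 10.64 in PV, 9.73, 10.12, 8.45 and 9.99 in LV, 8.96, 10.02 and 9.82 in RV, and 10.66, 9.95, 10.42 and 9.96 in PA. Against the ventricles, LA, SA and PV were higher by 1.31 ± 0.29 (SE, adjusted p = 0.00127), the largest rise of a member in that comparison, and its other probe gave 1.30. Ccl11, the eotaxin that attracts eosinophils, was 6.05, 5.10, 5.46 and 6.15 in LA, 7.63, 7.50, 7.14 and 7.55 in SA, 7.25, 6.97, 6.15 and 7.08 in PV, 6.06, 5.86, 6.10 and 5.78 in LV, 5.48, 5.96 and 6.70 in RV, and 5.52, 6.28, 6.06 and 6.15 in PA. It was higher in SA than in LA by 1.76 ± 0.28 (SE, adjusted p = 0.000235) and higher in PV than in LA by 1.17 ± 0.28 (SE, adjusted p = 0.00724); on slide 3 the latter difference was -0.0081, and the call was lost when only the arrays compared were fitted. Ccl11 exceeded the ventricles in LA, SA and PV together by 0.67 ± 0.19 (SE, adjusted p = 0.00691).

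Ccl20, the ligand of CCR6, was 4.84, 5.01, 4.995 and 5.04 in LA, 5.57, 5.71, 6.04 and 6.29 in SA, 5.85, 6.25, 5.97 and 6.49 in PV, 5.96, 5.64, 5.36 and 5.49 in LV, 5.74, 5.76 and 5.63 in RV, and 3.14, 5.07, 3.79 and 3.54 in PA. It was well above background on no PA array, the mean of the other regions being at least 1.82-fold higher. PV exceeded LA by 1.17 ± 0.28 (SE, adjusted p = 0.00862) and SA exceeded LA by 0.93 ± 0.28 (adjusted p = 0.0311); the latter was lost without any 1 of LA replicates 1 to 3 or SA replicates 3 and 4, with the array row as a block and on its probe 1 alone (adjusted p = 0.053). Ccl17, a ligand of CCR4, was 5.10, 5.77, 5.96 and 6.03 in LA, 4.50, 5.69, 5.69 and 5.83 in SA, 5.41, 5.76, 4.69 and 5.87 in PV, 5.97, 6.09, 5.99 and 6.42 in LV, 6.72, 6.50 and 6.88 in RV, and 5.35, 4.67, 5.10 and 3.47 in PA. It was lower in PA (-1.23 ± 0.28 SE, adjusted p = 0.000818) and in LA, SA and PV (-0.88 ± 0.25 SE, adjusted p = 0.00692). Cxcl2, a neutrophil attractant, was 5.67, 5.62, 4.60 and 4.22 in LA, 4.29, 5.31, 5.10 and 4.58 in SA, 3.96, 6.14, 6.93 and 8.15 in PV, 5.72, 6.24, 6.82 and 7.02 in LV, 5.54, 5.28 and 5.82 in RV, and 6.50, 5.91, 7.47 and 8.15 in PA. Its excess in PA, 1.38 ± 0.51 (SE, adjusted p = 0.0248), lost its call without PA replicate 3 or without PA replicate 4.

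Ccl27 and its receptor Ccr10 went in opposite directions in PA. Ccl27 was 9.93, 10.23, 10.45 and 10.38 in LA, 10.21, 10.15, 10.14 and 10.03 in SA, 10.07, 9.98, 9.52 and 9.83 in PV, 9.99, 9.79, 9.52 and 9.45 in LV, 9.62, 9.84 and 9.77 in RV, and 10.51, 11.02, 10.996 and 11.05 in PA, and all PA arrays exceeded all others by a mean of 0.96 ± 0.12 (SE, adjusted p = 4.47e-07). Ccr10 was 9.50, 9.50, 9.93 and 9.86 in LA, 9.87, 9.94, 10.23 and 9.84 in SA, 10.23, 9.85, 10.28 and 10.42 in PV, 9.19, 9.09, 8.87 and 9.47 in LV, 9.53, 9.46 and 9.56 in RV, and 7.20, 6.29, 6.64 and 6.71 in PA, and all PA arrays lay below all others, 8-fold in the mean (-2.9997 ± 0.13 SE, adjusted p = 1.29e-13). LA, SA and PV exceeded the ventricles in both, by 0.36 ± 0.10 (SE, adjusted p = 0.00738) and 0.62 ± 0.12 (SE, adjusted p = 0.000267). Ccl27 overlaps Il11ra1 and Ccr10 overlaps Cntnap1 in the annotation, and whether these probes also read the neighbours was not analysed here.

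Ccr9, the receptor of CCL25, was 9.04, 9.32, 9.59 and 9.27 in LA, 9.44, 9.34, 9.55 and 9.60 in SA, 9.65, 9.39, 9.18 and 9.64 in PV, 9.23, 9.49, 9.23 and 9.03 in LV, 9.55, 9.56 and 8.55 in RV, and 10.07, 10.56, 11.29 and 10.90 in PA by its brighter probe. PA exceeded the other regions by 1.36 ± 0.18 (SE, adjusted p = 1.57e-06) with no overlap, while the dimmer probe, well above background on 13 arrays, gave 0.42 ± 0.47 (SE, adjusted p = 0.506). Ccl22 likewise exceeded the other regions in PA by 0.74 ± 0.22 (SE, adjusted p = 0.00638) on its brightest probe and by 0.20 and 0.24, neither called, on the others, and the call was lost without PA replicate 2. Ackr2, which scavenges inflammatory CC chemokines, was 6.43, 6.52, 6.23 and 7.31 in LA, 6.83, 6.61, 7.28 and 6.82 in SA, 6.74, 6.97, 6.93 and 6.34 in PV, 8.13, 7.89, 7.36 and 7.45 in LV, 7.46, 7.52 and 7.90 in RV, and 7.49, 7.33, 6.77 and 6.97 in PA. The ventricular arrays lay above those of LA, SA and PV (-0.91 ± 0.16 SE, adjusted p = 0.000109), and PA arrays overlapped both.

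The members that did not differ among the 6 regions numbered 18 of 51. The ligands were Ccl9, Ccl22, Ccl24, Ccl25, Ccl28, Cxcl1, Cxcl6 and Cxcl17, and the receptors included Ccr1, Ccr2, Ccr3, Ccr4, Ccr6, Ccr7, Cxcr1, Cxcr2 and Cxcr5. Of the 3 Ccl22 probes fitted singly, only probe 3 was called among the 6 regions (limma F-test, adjusted p = 0.0283), where 51.9% of single probes were. Only that probe was called for LA, SA and PV against the ventricles (limma, -0.39 ± 0.11 SE, adjusted p = 0.0131), where 29.8% were. Ccr3, a receptor of eosinophils, was well above background on 2 of 23 arrays. Ccl26, an eotaxin, did pass the test among the regions (adjusted p = 0.0499), though it was well above background on only 1 of 23 arrays. Cxcl6 exceeded the other regions in PA by 1.19 ± 0.42 (SE, adjusted p = 0.0184) but was well above background on only 1 of 4 PA arrays; without that array, PA replicate 2, the difference was 0.60 and not called.

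The comparison of LA, SA and PV with the ventricles asked how supraventricular tissue differs from the working ventricle. Of 51 members, 24 were lower and 5 higher in LA, SA and PV, whereas 22.3% of all genes were lower and 18.6% higher, 40.9% in all. The median difference of the members was -0.44, against -0.08 over all genes. The 24 comprised 19 of 33 ligands, 4 of 16 receptors (Cxcr3, Cxcr4, Cxcr6 and Ccr2) and Ackr2. The largest fitted decreases were those of Cxcl11, Ccl5, Ccl4, Xcl1 and Cxcl10, of which Cxcl11 was well above background on 6 of 12 and Ccl4 on 7 of 12 LA, SA and PV arrays, and the differences were -4.50 and -2.23 once arrays below that mark were raised to their noise floor. Ccl4 therefore has no settled place among these 5. The 5 increases were Cxcl14, Ccl19, Ccl11, Ccr10 and Ccl27. For all 29 the difference had the same sign within row 1, within row 2 and within each slide that gave a value. The genes were called on these same arrays, and some regions had a single array in a row. This agreement is therefore no independent evidence.

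**Figure D4:**
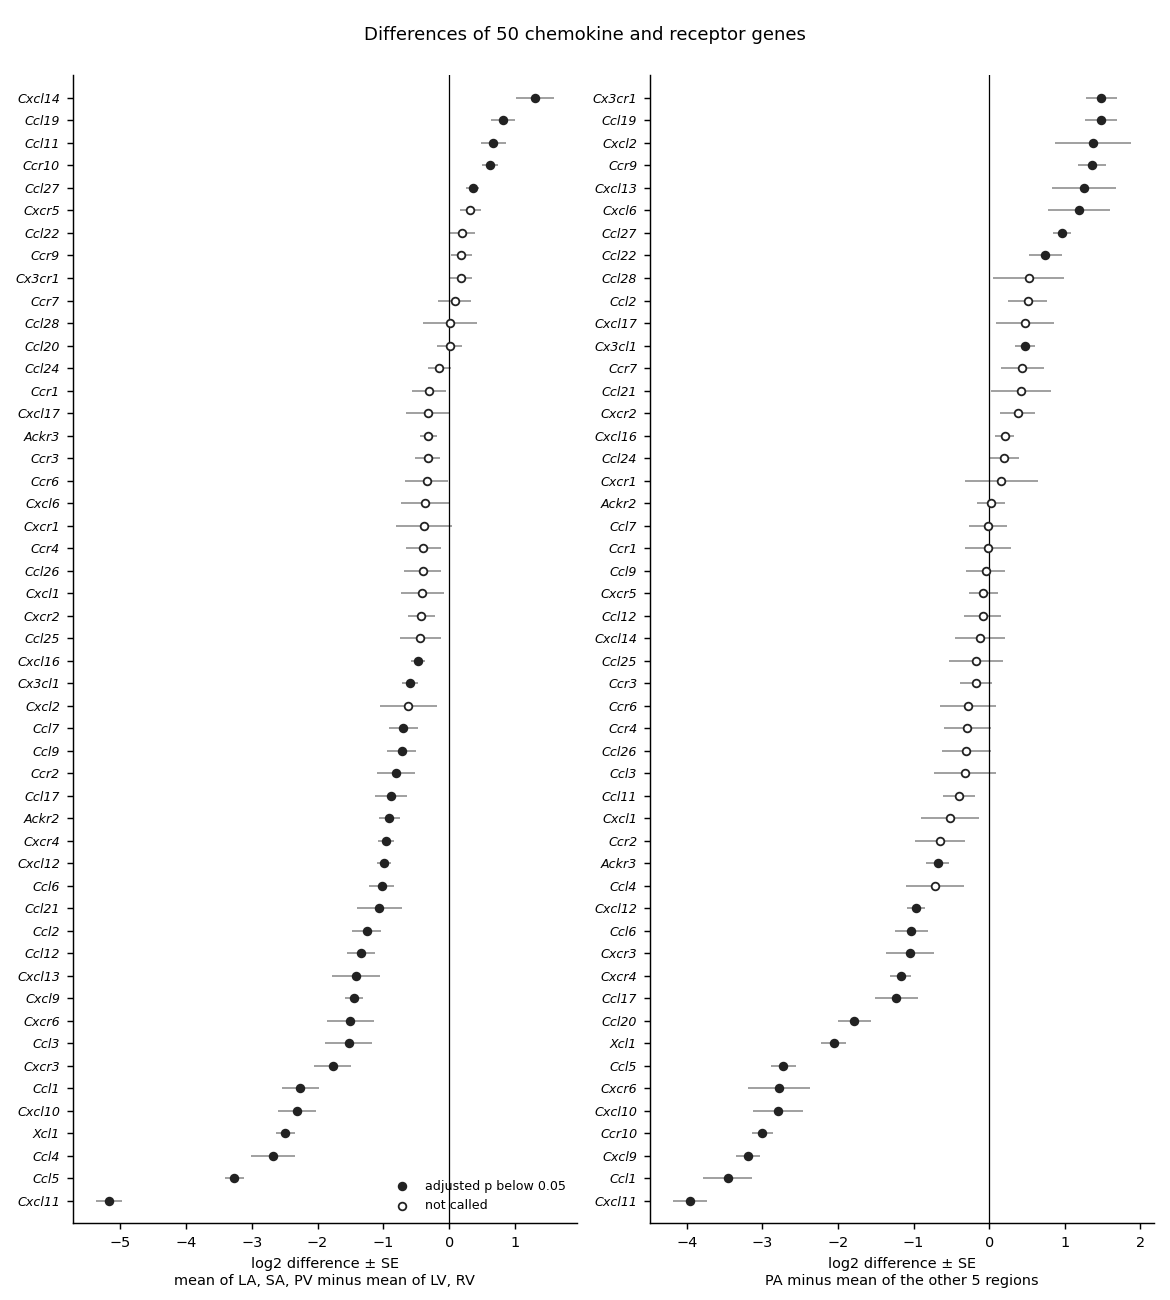
Each point is the log2 difference of 1 gene (50 of the 51 tested) with its standard error (left, the mean of LA, SA and PV minus the mean of LV and RV; right, PA minus the mean of the other 5 regions), filled where the adjusted p was below 0.05. On the left 24 filled points lie below 0 and 5 above, and on the right 15 lie below 0 and 9 above.

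PA is a great vessel without the working myocardium of the other pieces, and it was compared with the mean of the other 5 regions. There 24 members were called, 15 lower and 9 higher, whereas 27.7% of all genes were lower and 31.4% higher, 59.1% in all. The 15 include Cxcl12 at its highest probe, whose probe 3 was higher in PA, so its direction is not settled. The median was -0.12 for the members and 0.05 for all genes. Among the 11 lower genes with at least 1 PA array well above background, the largest decreases were those of Cxcl9, Ccr10, Cxcl10, Ccl5 and Xcl1; Cxcl10 was well above background on PA replicate 1 alone, the array that stands apart, so its place is not settled. Cxcl11, Ccl1, Cxcr6 and Ccl20 were well above background on no PA array, so only the lower bounds given for them hold and they have no place in that order. The largest increases were those of Cx3cr1, Ccl19, Cxcl2, Ccr9 and Cxcl13. By the highest probe all 24 had the same sign within both rows and within both slides that gave a value. This agreement comes from the arrays that gave the calls and is no independent evidence. The comparison shares the arrays of LA, SA, PV, LV and RV with the one before, so Cxcl11, Ccl5, Xcl1, Cxcl10 and Cxcl9, low in both, do not give independent evidence.

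SA and PV were each compared with LA, which asks what marks the pacemaker region and the pulmonary vein against atrial muscle, and these comparisons share the LA arrays. In SA 8 members were higher and 9 lower than in LA, against 7.03% and 8.26% of all genes (15.3% in all). In PV 5 were higher and 5 lower, against 6.99% and 6.51% of all genes (13.5% in all). The largest increases in SA were Cxcl12, Ccl11, Ccl19, Ccl12 and Ccl20, and the largest fitted decreases Ccl21, Cxcl11, Ccl5, Ccl4 and Ccl1, of which Cxcl11, Ccl4 and Ccl1 were well above background on 1 of 4 SA arrays each and have no settled place. The Ccl4 call was lost without SA replicate 4. Those of PV were Ccl19, Cxcl12, Ccl11, Ccl20 and Cxcl9 upward and Ccl5, Cxcl11, Xcl1, Cx3cl1 and Ccl6 downward, Cxcl11 being well above background on 1 of 4 PV arrays, so that its place in this order is not settled. All 10 genes called in PV were ligands. The SA count of 17 fell to 11 without LA replicate 1, without SA replicate 2 or without SA replicate 3. Markers of other cells moved in the same comparisons. Of 6 pan-leukocyte genes 5 were lower in SA and 5 in PV (medians -0.52 and -0.61), and of 9 T cell genes 2 were lower in SA and 5 in PV (medians -0.06 and -0.73). All 5 mesothelial genes tested were lower in SA and in PV (medians -1.65 and -1.80), with sums of 23353 to 28789.6 in LA, 5814 to 10835 in SA and 3714 to 10334 in PV. Of 5 smooth muscle genes 4 were higher in both (medians 2.30 and 3.23). Of 6 erythroid genes 3 were higher in both, with sums of 26987 to 46762 in LA, 77843 to 150329.9 in SA and 76170.1 to 114052 in PV. Their part in the chemokine differences was not tested.

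Directly compared, PV and SA differed in no member by limma (3.49% of all genes were called, 2.71% higher and 0.783% lower in PV, and 1.42% of single probes), and 7 of 51 members had an unadjusted p below 0.05, where 15.9% of all genes did. The largest of these were Cxcl2 at 1.48 ± 0.65, Ccl21 at 1.34 ± 0.51 and Ccl4 at 1.29 ± 0.49 for PV minus SA. In SA, Cxcl2 and Ccl4 were well above background on replicate 2 only. In PV both were highest on replicate 4, at 8.15 and 7.73, and Ccl21 was lowest in SA on replicate 2, at 7.43. The order of these genes is not settled. Between LV and RV only Cxcr4 was called, where 0.522% of all genes were, 0.298% with LV higher. Unadjusted p-values below 0.05 were given by 8 of 51 members and by 10.7% of all genes, the members including Cxcl9, higher on all RV arrays than on any LV array (-0.79 ± 0.22 for LV minus RV, adjusted p = 0.129), and Ccl1 (-1.57 ± 0.45, adjusted p = 0.142).

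Pan-leukocyte, T cell, dendritic cell, macrophage and endothelial markers were higher in the ventricular group. The summed pan-leukocyte list of 6 genes, Ptprc and Coro1a among them, was 15016 to 21239.9 in LV and 15724 to 20071 in RV, against 6382 to 8308 in LA, 4504 to 5854 in SA, 4539 to 5239 in PV and 6648 to 8125 in PA, on a linear scale. All 6 genes were lower in LA, SA and PV than in the ventricles. The T cell list was 8554 to 9777 in LV, 8255 to 8407 in RV, 5072 to 5861 in LA, 4744 to 5462 in SA, 3949 to 4800.1 in PV and 3466 to 3937 in PA, with 7 of 9 genes lower in LA, SA and PV and 6 of 9 lower in PA. In PA 3 of these 9 genes were well above background on no array, and in LV none was so. The macrophage list moved otherwise: 10 of 13 genes were lower in LA, SA and PV than in the ventricles, but 8 of 13 were higher in PA, where the sum was 33386 to 42934. Of 8 endothelial genes, 6 were lower in LA, SA and PV (median -0.53) and 7 were lower in PA (median -1.31). Their sum was 80480.1 to 85464 in LV and 68889 to 74104 in RV, against 40545 to 52823 in LA, 42131 to 49023 in SA, 38929.5 to 46143 in PV and 26849 to 51865 in PA, where replicate 1 was the highest. Of 5 venous endothelial genes, 3 were higher and 1 lower in LA, SA and PV. There 4 of 5 mesothelial genes were higher and 1 lower (median 2.39), and 4 of 6 erythroid genes higher and 1 lower (2.10). Of 5 smooth muscle genes 4 were higher there (1.51), and of 5 Schwann cell genes 4 (1.18). In PA all 5 smooth muscle genes were higher (5.55). Of 5 adipocyte genes 4 were higher and 1 lower in PA (2.65), and of 7 fibroblast genes 4 were higher and 2 lower (1.18). The part of these cells in the chemokine differences was not tested. Thymocyte markers were at or near background in all regions, with summed signals of 25.1 to 88.4, and 1 of 3 was lower in LA, SA and PV. Of 4 dendritic cell genes 3 were lower in LA, SA and PV (median -0.82), while 1 of 7 mast cell genes and 1 of 4 B cell genes were lower in LA, SA and PV, and 2 of 7 neutrophil genes were higher. The neutrophil list summed to 229.8 to 1150.3.

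**Figure D5:**
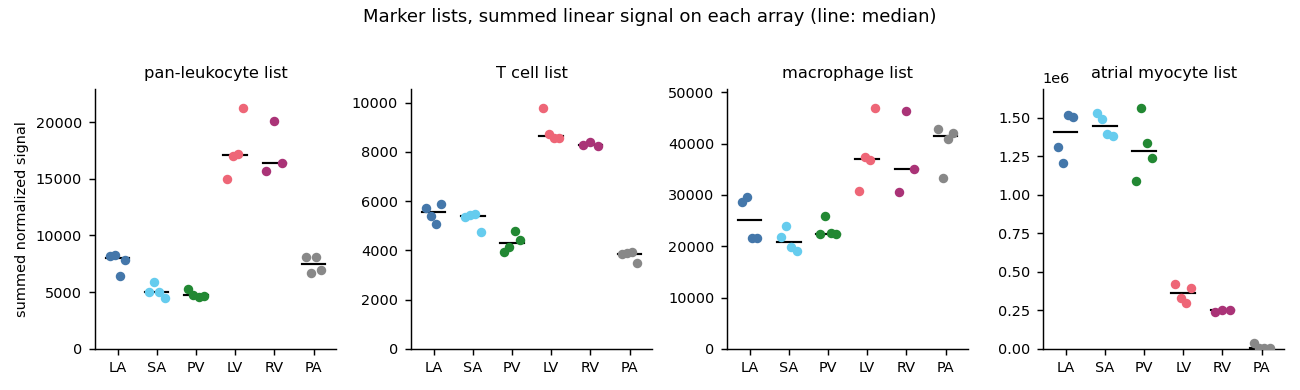
Each point is the summed linear normalized signal of a marker list on 1 array and the line is the regional median. The pan-leukocyte and T cell sums are higher on all ventricular arrays than on any other, the macrophage sum is high in the ventricles and in PA, and the atrial myocyte sum is small in PA, where replicate 1 is the highest array at 37761.

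Genes that work with the chemokines were read from lists. Their counts stand against 22.3% of all genes lower and 18.6% higher in LA, SA and PV than in the ventricles, and 27.7% lower and 31.4% higher in PA. Of 21 interferon response genes tested, 11 were lower and 1 higher in LA, SA and PV than in the ventricles (median -0.64), and 13 were lower and 1 higher in PA (median -0.54). In PA the largest decreases were those of Rsad2, an antiviral enzyme, at -3.14 ± 0.23 (SE, adjusted p = 2.2e-10) and Usp18, which removes ISG15 from proteins, at -2.55 ± 0.18 (SE, adjusted p = 2.16e-10), and Irf8 was the gene that rose, at 0.53 ± 0.21 (SE, adjusted p = 0.0395). Against LA, 6 genes of the list were higher and none lower in SA than in LA, and 5 were higher and none lower in PV than in LA (limma), where 7.03% and 6.99% of all genes were higher; Cxcl9 was likewise higher in both and Cxcl11 lower in both. Of 21 genes of NF-kB signalling and of the response to dissection, 10 were higher and 2 lower in PA, led by Vcam1, an adhesion molecule, at 3.77 ± 0.15 (SE, adjusted p = 1.6e-14) and Fos, an immediate early gene, at 2.30 ± 0.59 (SE, adjusted p = 0.00216). In LA, SA and PV against the ventricles 1 was higher and 4 lower. Vcam1 and Selp of this list are also in the venous endothelial list, so the 2 lists are not separate.

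Of 33 signal transducers of chemokine receptors, 16 were lower and 5 higher in LA, SA and PV than in the ventricles (median -0.39), while 12 were higher and 11 lower in PA (median 0.04), shares in PA near those of all genes. Rgs2, which dampens G protein signals, was higher in PA by 2.41 ± 0.13 (SE, adjusted p = 1.31e-12) and the adenylyl cyclase gene Adcy7 by 1.51 ± 0.21 (SE, adjusted p = 3.04e-06). Prex1, a Rac exchange factor, was lower, at -1.81 ± 0.28 (SE, adjusted p = 1.02e-05) and so was the small GTPase gene Rap1a, at -1.33 ± 0.08 (SE, adjusted p = 1.51e-11). Of 18 other genes of the chemokine system, 7 were lower and 1 higher in LA, SA and PV, and 5 were lower and 9 higher in PA, the lower share there near that of all genes. Cmklr1, the chemerin receptor, rose there by 3.45 ± 0.17 (SE, adjusted p = 4.67e-13) and Mmp2, a protease that cleaves chemokines, by 2.30 ± 0.18 (SE, adjusted p = 6.34e-10). Cd74, the invariant chain that also binds MIF, was lower in PA, at -3.72 ± 0.12 (SE, adjusted p = 9.2e-16), and Dpp4, which trims the N-terminus of CXCL10 and CXCL12, was lower too, at -0.96 ± 0.20 (SE, adjusted p = 0.000246).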

How the data were processed

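Cy3-labelled cRNA of 23 rat tissue samples was hybridised to Agilent rat arrays, read with Agilent Feature Extraction 11.0.1.1 per the submitters' processing notes. The deposited table holds the authors' normalized signal on a linear scale, background-subtracted, detrended and scaled to the 90th percentile of each array. The deposited scanner files hold intensity values and marks for spots well above background, and gave the row and slide of each array. Here 156 of 45596 probes with missing values were removed, probes were named through the accession of each probe in RefSeq (assembly GRCr8; 21047 probes matched a symbol), a gene with several probes took the largest value per array, and log2(signal + 1) was analysed. Genes above 4 on that log2 scale on at least 1 array (16089 of 16544) were fitted together with limma 3.58.1 in R 4.3.3 (lmFit, eBayes, 6 regions, no block), and p-values were adjusted over all genes by Benjamini-Hochberg; a call is an adjusted p below 0.05. The methods' analysis of variance over LA, ventricle and SA was extended to 6 regions and moderated. The fit was tested on simulated data with noise drawn independently for each array. That test does not cover arrays of a row deviating together. Where no array of a group was well above background, a fold is a lower bound set against the lowest signal well above background on each array. Members and lists were chosen with earlier results of these data known.

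Named are all members called in a comparison, or the 5 largest in each direction where over 10 were called. In PA the lower genes are ordered without those well above background on no PA array, a choice made after their values were seen. Values on every array are given for 32 genes that differed among the regions and passed the background mark on all arrays of a region. Of the pathway lists, the 2 genes with the largest change in each direction in PA are named, if well above background throughout the higher group. Other members and probes were named after their values were seen. Which samples came from the same rat is not given in the sources used here. Same-numbered samples of different regions did not deviate together (correlations of deviations -0.38 to 0.34, 12 of 55 above 0.1), so the numbers were not taken as pairs. Arrays in the same row of their slides deviated together more often (median correlation 0.09, 50 of 107 above 0.1) than arrays in other rows (median -0.10, 14 of 113). Alternatives covered the values used, scaling, background correction, filter, probe choice, pseudocount, slide, row and replicate blocks, the variance prior, the arrays fitted and leaving out each array; fits of single probes were chosen after seeing the data. Of the members, 1 that is counted among those tested is not reported here. No probe was placed on a genome. The number of arrays limits the precision. Plots were drawn with matplotlib 3.10.9.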

Additional observations from a re-analysis of the deposited data

Results flagged for a closer look

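In groups of 4 arrays, 8 of 160 sets of values of the 32 genes had 1 array far from the other 3 by Dixon's test, and chance flags about 1 in 20 such sets. PA replicate 1, the array with the high atrial myocyte sum, was the distant array in 4 of them: Cx3cr1 was 13.25 against 14.27 to 14.47 on the other PA arrays, Ccl27 was 10.51 against 10.996 to 11.05, Ccl5 was 9.73 against 9.29 to 9.31, and Cxcl16 was 11.63 against 11.16 to 11.22. In LV, Ccl12 was 6.36 on replicate 2 against 7.68 to 7.82, and Ccl6 was 10.19 on replicate 1 against 10.56 to 10.62. In SA, Ccl17 was 4.50 on replicate 1 against 5.69 to 5.83, and Cxcl11 was 4.63 on replicate 2, the only SA array in row 1 of a slide, against 3.52 to 3.60.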

How the results depend on the processing

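The counts of genes called stayed within 1.5 times of those reported under every alternative run for the 6 regions, the 5 regions, PA, and LA, SA and PV against the ventricles. For PV against SA, 1 gene was called with quantile normalization. For LV against RV, 2 genes were called with normexp background correction, 2 with a pseudocount of 16 and 0 when only the arrays compared were fitted. Leaving out each array in turn gave 30 to 34 genes for the 6 regions, 26 to 31 for the 5 regions, 22 to 24 for PA, 28 to 30 for LA, SA and PV against the ventricles, 11 to 18 for SA against LA, 8 to 12 for PV against LA, 0 to 1 for PV against SA and 0 to 1 for LV against RV. Whether samples of the same number share a rat is not given. With the replicate number as a block, the counts were 32, 28, 24, 29, 16, 10, 0 and 1 in the same order. With the array row as a block they were 32, 28, 24, 30, 15, 11, 0 and 1, and with the slide as a block 34, 30, 25, 28, 14, 10, 0 and 1. Of the recomputed differences of the leading genes of each comparison, 1419 kept the call, 63 lost it and none changed sign; beside these, Cxcl12 in PA turned from -0.97 to 1.59 on its probe 3, and within single slides Ccl1 turned to 0.23 (SA against LA, slide 2), Ccl11 to -0.0081 (PV against LA, slide 3) and Ccl6 to 0.011 (PV against LA, slide 1). With normexp background correction the calls of Cxcl2 in PA and of Ccl1, Ccl4 and Ccl12 in SA against LA were lost, and with only the arrays compared those of Ccl1 and Ccl19 in SA and of Ccl6 and Ccl11 in PV against LA; the cause was not tested. Genes near background in SA, PV and PA, where row 2 arrays have a higher floor, are limited by signal. There a difference is a lower bound, rests on few arrays or has no settled size.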
